A study of Mus musculus with 12 samples.

Results

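The genotype by time-of-day interaction was measured in mouse hippocampus as the night minus day difference in Presenilin double-knockout (DKO) mice minus the same difference in wild-type (WT) mice. All 12 libraries of the series entered it, 3 each of day WT, night WT, day DKO and night DKO. The interaction was estimated for 12689 of 21878 genes, those whose FPKM reached 0.5 in 3 or more libraries. FPKM is a level scaled to transcript length and library size, and every difference below is on the log2(FPKM + 1) scale, which understates the change of low genes. The labels give the genotype as WT or DKO and the time as Day or Night. The series title names a conditional knockout of Presenilin genes, and its design text has the mice killed at 9 a.m. or at 9 p.m. The labels do not state the promoter that drives recombination, the age and sex of the mice, the lighting schedule or the strain. Nothing in the labels says that the 3 libraries of a group came from separate mice, so p-values measure the spread between these libraries only. In bulk tissue, fewer cells of a type and less RNA per cell cannot be told apart.

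The molecular clock is a feedback loop in which BMAL1 (encoded by Arntl) and CLOCK activate the Per and Cry repressors, the nuclear receptors Nr1d1 and Nr1d2, and output factors such as Dbp. Nr1d1 and Nr1d2 in turn repress Arntl, so Arntl and Dbp peak at nearly opposite times. Presenilins are the catalytic subunits of gamma-secretase, which cuts Notch receptors and the amyloid precursor protein. In hippocampus, time of day also reaches transcription through glucocorticoid hormone and through neuronal activity, which differs between sleep and waking.

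No gene passed the test of the interaction (limma, Benjamini-Hochberg adjusted p under 0.05, 0 of 12689 genes, 0%). The smallest adjusted p was 0.396, shared by 17 genes. An unadjusted p under 0.05 was reached by 1099 genes (8.66%), where 634.45 would be expected at that threshold with no difference anywhere. The night minus day difference was higher in DKO in 227 of them (1.79%) and lower in 872 (6.87%). This split depended on scaling: it was 482 higher and 460 lower after median-of-ratios scaling, and 409 higher and 499 lower after quantile normalization. The median interaction over all genes was -0.05 as deposited and 0.00 after median-of-ratios scaling. The median half-width of the 95% confidence interval, which is not adjusted for the number of genes, was 0.24. For a typical gene, a smaller difference between the genotypes did not reach even an unadjusted p under 0.05. Larger differences missed the adjusted limma test too: Arntl, with an interaction of -0.42, had an adjusted p of 0.396. The genes described below are therefore candidates with their intervals, and a missed threshold does not show that the genotypes respond alike.

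Within genotypes, 212 genes (1.67%) passed the night against day test in WT, 192 higher at night and 20 lower. In DKO 38 genes (0.299%) passed, 23 higher and 15 lower. The WT split was 20 higher and 32 lower after median-of-ratios scaling and 26 higher and 46 lower after quantile normalization. The DKO split was 25 higher and 32 lower after median-of-ratios scaling and 24 higher and 39 lower after quantile normalization. The WT calls also rested on single libraries: 1 gene, Tspan4, passed without day WT replicate 1 or without any 1 of the night WT replicates, and 41 passed without day WT replicate 2. Every WT call named below other than Tspan4 is subject to this. Of the 71 genes described below 19 were called in DKO, and 9 of these calls were made in all 23 alternative settings. That count leaves out DKO calls of genes that are only listed, such as Fmo2 and Col4a1. Among the 212 WT calls, 195 kept their sign in DKO and 195 had a smaller difference there, with a median size of 0.34 in WT and 0.15 in DKO. Of the 38 called in DKO, 35 had the same sign in WT, with a median size of 0.29 in WT and 0.51 in DKO. Each of these medians favours the genotype in which the genes were called, because the call chose them.

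**Figure D1:**
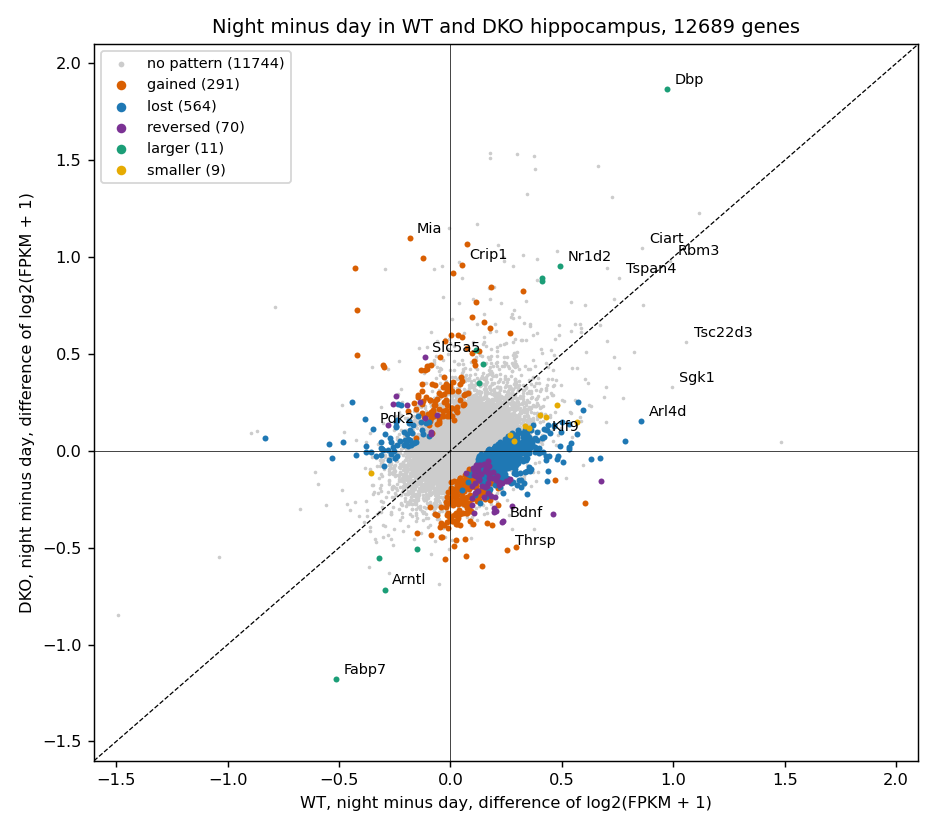
Night minus day difference of log2(FPKM + 1) in WT (horizontal) and DKO (vertical) for the 12689 genes tested, 3 of which lie outside the axes. Colours mark the pattern of genes at an unadjusted interaction p under 0.05, and the dashed line marks equal differences: Dbp, Nr1d2, Arntl and Fabp7 lie farther from 0 in DKO than in WT, and Rbm3 lies on the line.

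The 1099 genes were sorted by whether the day and night libraries of each genotype overlapped. A difference was gained where they overlapped in WT and not in DKO (291 genes, 2.29%), lost in the converse case (564 genes, 4.44%), and reversed where neither overlapped and the signs were opposite (70 genes, 0.552%). It was larger in DKO with the same sign in 11 genes (0.0867%) and smaller in 9 (0.0709%), and in 154 genes (1.21%) both genotypes overlapped. Among all genes tested, day and night libraries did not overlap for 28.7% of genes in WT and 19.4% in DKO, and both separated in opposite directions for 0.575%. Most lost differences were higher at night in WT, since 502 of the 564 had an interaction below 0 (3.96% of all genes). That direction was not stable: under median-of-ratios scaling 192 of 371 lost genes had an interaction above 0 and 179 below. The genes lost under both scalings numbered 238, of 564 and of 371. Those gained under both were 183, of 291 and of 343, and those reversed under both were 15, of 70 and of 58.

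**Figure D2:**
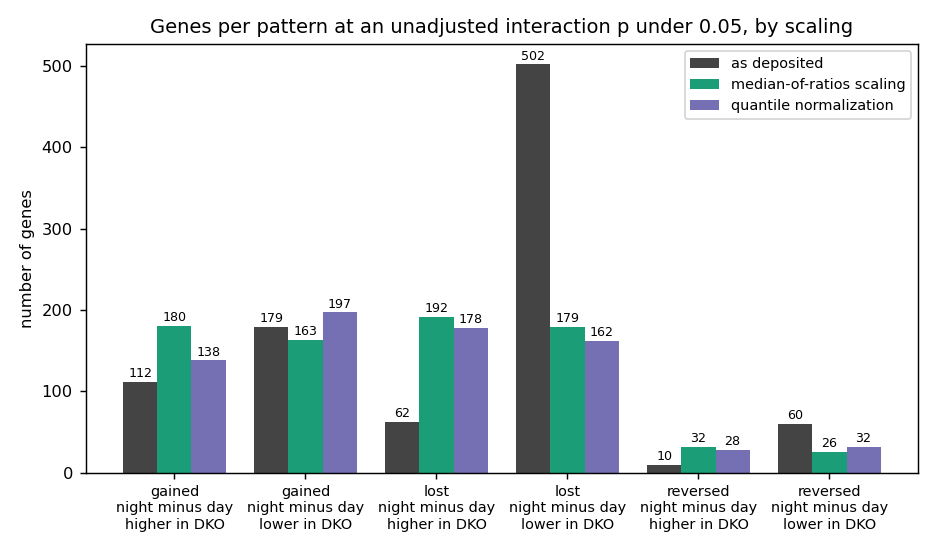
Number of genes with a gained, lost or reversed time-of-day difference, split by whether night minus day was higher or lower in DKO, for values as deposited, after median-of-ratios scaling and after quantile normalization. The lost genes that were lower in DKO numbered 502, 179 and 162 in that order.

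The group that stood farthest from the mean of the other groups was counted for the same 1099 genes. It was day WT for 427 genes (38.9%), where 392 were lower, against 30.8% of all genes tested. Day DKO stood apart for 321 genes (29.2%, against 27.4% of all genes), with 223 higher. Night WT did so for 253 (23.0%, against 26.4%) and night DKO for 98 (8.92%, against 15.4%). As deposited, a day group thus stood apart for more of these genes than a night group.

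The labels and the tissue were checked first. Psen2 had FPKM of 1.67, 1.47 and 2.87 in day WT and 3.55, 2.94 and 3.64 in night WT. It had 0.520, 0.378 and 0.275 in day DKO and 0.486, 0.351 and 0.594 in night DKO, so no DKO library reached the lowest WT library at either time. All 15 markers of hippocampal subfields, among them Prox1 and Wfs1, passed the filter, with summed FPKM between 232.7 and 273.2. Night WT replicate 1 had an FPKM of 0.0225 for the Y-linked gene Ddx3y, against 6.83 to 8.56 in the other 11 libraries. Summed over the 4 Y-linked genes tested, it had 0.0308, against 14.1 to 18.1 in the other 11. Night WT was thus the only group holding a library near 0 for these genes. Whether this has a part in the night WT values was not tested. Summed FPKM of 18 choroid plexus markers ranged from 80.1 to 3324 between libraries. Library sums of FPKM were 151059 to 175692, and low-value steps put relative depth between 0.90 and 1.06, with day WT replicate 1 as 1.

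Of 23 core clock genes 22 were tested, 6 with a higher and 1 with a lower night minus day difference in DKO at an unadjusted interaction p under 0.05, against 1.79% and 6.87% of all genes. None of the 22 passed the adjusted interaction test, and 8 had an interaction below 0, against 63.5% of all genes. In WT 4 of the 22 rose and 1 fell at night, against 1.51% and 0.158% of all genes. Those WT counts were 1 and 1 after median-of-ratios scaling and 2 and 1 after quantile normalization. In DKO 6 rose and 1 fell, against 0.181% and 0.118%, and the same counts were found under both other scalings. The list was chosen with earlier results of these data known. Its median interaction was 0.05, and the 7 genes were Dbp, Nr1d1, Nr1d2, Per3, Tef and Hlf on the higher side and Arntl on the lower.

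Dbp encodes a transcription factor that reads out the clock by binding D-box sequences (chr7:45705100-45710203, GRCm38.p6). Its FPKM was 8.21, 9.68 and 7.61 in day WT and 16.4, 18.5 and 17.9 in night WT. It was 4.09, 7.11 and 4.001 in day DKO and 17.6, 23.3 and 21.2 in night DKO. Day and night did not overlap in either genotype, and every day DKO library was below every day WT library. Dbp rose at night by 0.97 in WT (adjusted p = 0.0262) and by 1.87 in DKO (adjusted p = 0.000194). The interaction was 0.89 (95% confidence interval 0.41 to 1.38, adjusted p = 0.463). The related factors Tef and Hlf had interactions of 0.23 and 0.22 and were gained, with no call in either genotype.

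Nr1d2, a repressor of Arntl, had FPKM of 12.1, 11.97 and 11.5 in day WT and 18.3, 15.2 and 17.9 in night WT. In DKO it had 9.29, 10.1 and 7.54 by day and 18.1, 17.3 and 19.1 at night. The night values of the genotypes overlapped, and the day values did not. Nr1d2 rose by 0.49 in WT (adjusted p = 0.0339, lost under both other scalings) and by 0.95 in DKO (adjusted p = 0.000319), an interaction of 0.46 (interval 0.18 to 0.74, adjusted p = 0.505). Its paralogue Nr1d1 had 4.74, 5.62 and 4.86 in day DKO and 8.60, 12.1 and 9.98 in night DKO, and rose by 0.88 (adjusted p = 0.00662). Nr1d1 had 7.54, 6.06 and 6.05 in day WT and 8.02, 10.4 and 8.69 in night WT, a difference of 0.41 that did not pass (adjusted p = 0.087). Its interaction was 0.47 (interval 0.10 to 0.83).

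Arntl, which encodes the activator BMAL1, ran the other way. Its FPKM was 2.22, 2.32 and 2.19 in day WT and 1.59, 1.69 and 1.66 in night WT. It was 2.89, 3.25 and 3.41 in day DKO and 1.67, 1.45 and 1.501 in night DKO. The day DKO libraries were the highest of the 4 groups without overlap. Arntl fell at night by 0.29 in WT (adjusted p = 0.0429) and by 0.72 in DKO (adjusted p = 0.000194). The interaction was -0.42 (interval -0.62 to -0.23, adjusted p = 0.396), and it was -0.38 after median-of-ratios scaling. Per3, a Period family repressor, had 1.94, 1.53 and 1.20 in day DKO against 2.78, 2.57 and 2.56 in night DKO, and rose by 0.52 (adjusted p = 0.0219). That call was lost without day DKO replicate 2 or 3, without any 1 of the night DKO replicates, with no filter and with a choroid plexus covariate. In WT its difference was 0.11, and the interaction was 0.41 (interval 0.14 to 0.67).

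Per2 and Ciart changed with time in both genotypes. Per2, a core repressor, had 2.74, 2.74 and 2.78 in day WT against 4.44, 3.75 and 4.07 in night WT, and 3.28, 3.37 and 2.81 in day DKO against 4.42, 4.78 and 4.57 in night DKO. It rose by 0.44 in WT (adjusted p = 0.0216, lost after median-of-ratios scaling) and by 0.43 in DKO (adjusted p = 0.0179, lost without day DKO replicate 3 or night DKO replicate 2 or 3, with no filter and with a choroid plexus covariate). The interaction of Per2 was -0.00, with an interval of -0.21 to 0.20. Ciart, a repressor of CLOCK and BMAL1, rose by 0.86 in WT (adjusted p = 0.0339) and by 1.05 in DKO (adjusted p = 0.015). Both Ciart calls were lost with no filter, the WT call under both other scalings, and the DKO call without day DKO replicate 1 or 3 or night DKO replicate 3. Its interaction of 0.19 had a wide interval, -0.30 to 0.67, and was between 0.01 and 0.43 over the alternatives.

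**Figure D3:**
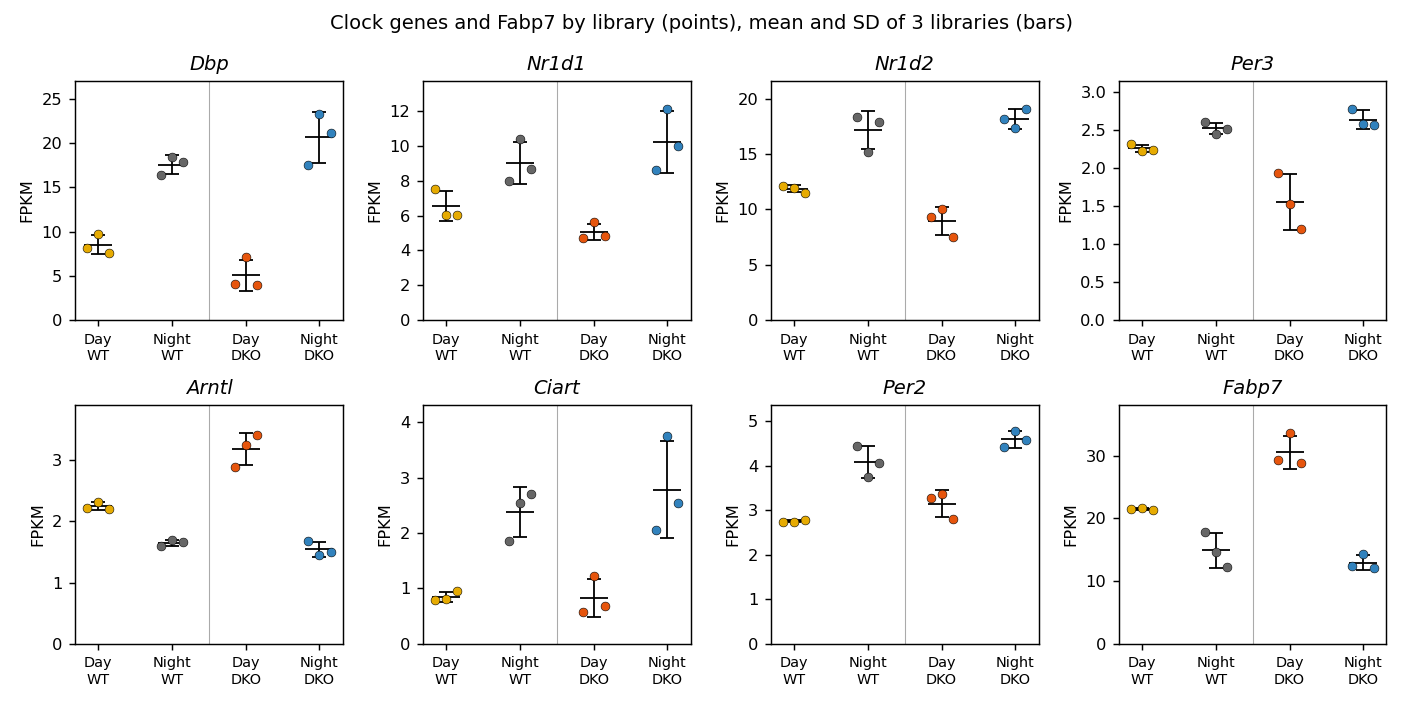
FPKM (vertical) of 7 clock genes and Fabp7 in the 4 groups (horizontal). Points are libraries and bars the mean and SD of 3 libraries. Day DKO lies below day WT for Dbp, Nr1d1, Nr1d2 and Per3 and above it for Arntl and Fabp7, and Per2 has nearly the same night minus day difference in both genotypes.

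Promoters of the clock genes were read to show the elements through which the loop is known to act. The windows span 250 bases before to 50 after a RefSeq start on GRCm38.p6, and matches on either strand are in capitals. The E-box CACGTG, to which CLOCK and BMAL1 bind, occurred 3 times in the Ciart window (chr3:95882179-95882478, minus strand). The D-box TTATGTAA, to which Dbp, Tef and Hlf bind, occurred 2 times in the Per3 window (chr4:151044616-151044915, minus strand). The ROR element core TAGGTCA, bound by Nr1d and Ror receptors, occurred 1 time in 1 of 2 Arntl windows (chr7:113207261-113207560, plus strand).
Ciart: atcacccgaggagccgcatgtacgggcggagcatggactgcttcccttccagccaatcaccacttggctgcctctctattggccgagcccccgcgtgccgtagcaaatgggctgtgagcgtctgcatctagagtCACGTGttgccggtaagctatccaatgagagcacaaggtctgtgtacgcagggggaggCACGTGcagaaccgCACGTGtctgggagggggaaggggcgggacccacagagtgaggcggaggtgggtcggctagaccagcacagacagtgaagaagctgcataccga
Per3: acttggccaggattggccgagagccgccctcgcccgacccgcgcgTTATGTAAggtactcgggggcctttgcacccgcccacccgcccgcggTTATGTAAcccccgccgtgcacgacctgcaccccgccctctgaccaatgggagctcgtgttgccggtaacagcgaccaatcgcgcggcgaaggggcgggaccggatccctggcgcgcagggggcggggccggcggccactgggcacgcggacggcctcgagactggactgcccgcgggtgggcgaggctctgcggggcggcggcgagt
Arntl: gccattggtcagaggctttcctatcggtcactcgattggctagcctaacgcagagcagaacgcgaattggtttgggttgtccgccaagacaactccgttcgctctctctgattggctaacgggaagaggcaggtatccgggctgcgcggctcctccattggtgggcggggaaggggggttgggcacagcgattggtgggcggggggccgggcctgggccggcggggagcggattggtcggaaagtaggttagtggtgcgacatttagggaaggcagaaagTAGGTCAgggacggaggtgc
The E-box was in 7.15% of all 32851 windows, the D-box in 0.938% and the ROR core in 2.61%. Of 18 core clock genes with a window, 5 held the E-box (Cry1, Per1, Tef, Ciart and Bhlhe41), 1 the D-box (Per3) and 2 the ROR core (Arntl and Nfil3). Per gene, over the 10139 tested genes with a window, the shares were 11.8%, 0.690% and 2.06%. The 3 genes shown differ in their interaction, 0.19 for Ciart, 0.41 for Per3 and -0.42 for Arntl. These matches are descriptions of the windows and not tests of binding.

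Outside the clock list, the genes whose difference was larger in DKO with night lower were Fabp7, Akt2 and Rbm28. Fabp7, a fatty acid binding protein of astrocytes and neural progenitors that is known to cycle in brain, had FPKM of 21.4, 21.7 and 21.3 in day WT and 17.8, 14.7 and 12.3 in night WT. It had 29.3, 33.6 and 28.8 in day DKO and 12.5, 14.3 and 12.1 in night DKO. Day DKO was again the highest group without overlap. Fabp7 fell by 0.51 in WT (adjusted p = 0.0429) and by 1.18 in DKO (adjusted p = 0.000196), an interaction of -0.67 (interval -0.99 to -0.34, adjusted p = 0.435). Akt2, a kinase of insulin signalling, had 8.89, 8.07 and 8.08 in day WT, 7.64, 7.14 and 7.48 in night WT, 9.58, 10.7 and 10.1 in day DKO and 6.75, 6.99 and 6.71 in night DKO. It fell in DKO by 0.51 (adjusted p = 0.00152), its WT difference of -0.15 did not pass, and its interaction was -0.36 (interval -0.54 to -0.18). Rbm28, a nucleolar RNA-binding protein, fell by 0.32 in WT (adjusted p = 0.0344) and by 0.55 in DKO (adjusted p = 0.00109). Its interaction was -0.23 (interval -0.42 to -0.05) and was no longer at an unadjusted p under 0.05 after median-of-ratios scaling.

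Called changes were shared by both genotypes in 16 genes, all with the same sign. They were Arntl, Ciart, Coq10b, Dbp, Fabp7, Fmo2, Inf2, Mgp, Mthfd1l, Nr1d2, Per2, Rbm28, Rbm3, Timp3, Tspan4 and Use1. At an unadjusted interaction p under 0.05 there were 5 of these 16: Arntl, Dbp, Fabp7, Nr1d2 and Rbm28. Rbm3, a cold-inducible RNA-binding protein, had 3.82, 3.99 and 4.62 in day WT and 7.51, 11.5 and 8.92 in night WT. It had 2.45, 3.85 and 3.63 in day DKO and 8.63, 7.10 and 6.66 in night DKO. Every night library was above every day library. Rbm3 rose by 0.99 in WT (adjusted p = 0.018) and 0.98 in DKO (adjusted p = 0.0137, lost without night DKO replicate 2 and with no filter), and its interaction of -0.00 had an interval of -0.46 to 0.45. Tspan4, a tetraspanin membrane protein, rose by 0.76 in WT (adjusted p = 0.00181) and 0.89 in DKO (adjusted p = 0.000194) and was called in both under all 23 alternatives. Coq10b, a coenzyme Q binding protein of mitochondria, rose by 0.54 and 0.62 (adjusted p = 0.018 and 0.00564), with an interaction of 0.08 (interval -0.17 to 0.32).

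Of 20 glucocorticoid-responsive genes 19 were tested: 7 rose at night in WT and 0 in DKO by the adjusted limma test, against 1.51% and 0.181% of all genes. The WT count was 2 after median-of-ratios scaling and 3 after quantile normalization. At an unadjusted p under 0.05, 13 were higher at night in WT and 8 in DKO, against 19.8% and 10.3% of all genes. Those counts were 11 and 4 after median-of-ratios scaling (7.32% and 7.90% of all genes) and 11 and 5 after quantile normalization (7.05% and 7.06%). At an unadjusted interaction p under 0.05, 6 were lower in DKO (Fkbp5, Klf9, Errfi1, Hif3a, Nr3c2 and Sult1a1) and 1 higher (Dusp1), against 6.87% and 1.79% of all genes. The lower ones numbered 3 after median-of-ratios scaling and 4 after quantile normalization, where 460 and 499 of all 12689 genes were lower. The median night minus day difference was 0.42 in WT and 0.19 in DKO, and the median interaction was -0.29, against -0.05 over all genes. That median was -0.26 after median-of-ratios scaling and -0.24 after quantile normalization. No member passed the adjusted interaction test.

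Klf9, a transcription factor induced by glucocorticoids (chr19:23141226-23168129), had FPKM of 25.2, 24.2 and 26.7 in day WT and 33.1, 35.6 and 34.2 in night WT. It had 29.3, 31.0 and 30.8 in day DKO and 34.8, 31.5 and 30.0 in night DKO. The WT times separated, the DKO times overlapped, and day DKO lay between the WT groups. Klf9 rose by 0.42 in WT (adjusted p = 0.018), its DKO difference was 0.07, and its interaction was -0.35 (interval -0.54 to -0.16, adjusted p = 0.463). The interaction of Klf9 was -0.23 after quantile normalization. Fkbp5, a cochaperone that restrains the glucocorticoid receptor, had 7.27, 6.27 and 7.76 in day WT and 11.5, 10.5 and 11.5 in night WT. It had 9.32, 10.6 and 9.91 in day DKO and 12.9, 10.2 and 12.02 in night DKO. The WT times separated by 7.76 against 10.5 between the nearest libraries, and the DKO times overlapped. Fkbp5 rose by 0.59 in WT (adjusted p = 0.018), and its DKO difference of 0.21 did not pass (adjusted p = 0.291). Its interaction was -0.38 (interval -0.66 to -0.11).

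Sgk1 and Tsc22d3, also induced by the hormone, were chosen for mention after their values were seen. Tsc22d3 had 10.9, 8.55 and 10.4 in day WT and 22.9, 21.1 and 21.1 in night WT, and rose by 1.06 (adjusted p = 0.0339, lost under both other scalings). In DKO it had 15.6, 17.3 and 9.31 by day and 26.6, 20.0 and 16.2 at night, so the times overlapped and the spread within each time was wide. Its interaction was -0.50 (interval -1.09 to 0.10), and it was -0.75 without day DKO replicate 3 and -0.30 with a choroid plexus covariate. Sgk1, a kinase, rose by 1.00 in WT (adjusted p = 0.0485, lost under both other scalings), with 0.33 in DKO and an interaction of -0.67 (interval -1.35 to 0.02). Dusp1, a phosphatase that is also an immediate early gene, went the other way. It had 7.998, 6.36 and 3.82 in day DKO and 9.28, 11.8 and 10.9 in night DKO, with 7.66 to 10.5 over the 6 WT libraries. Its interaction was 0.65 (interval 0.09 to 1.21) and 0.40 without day DKO replicate 3, whose value was the lowest.

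Other genes with a lost difference belonged to no single list. Pdk2, a kinase that restrains pyruvate oxidation (chr11:95026258-95041371), had the second smallest unadjusted interaction p, 0.000105. Its FPKM was 9.89, 9.45 and 9.47 in day WT and 7.80, 7.30 and 6.89 in night WT. It was 9.06, 9.27 and 8.45 in day DKO and 10.2, 9.78 and 9.24 in night DKO. Night WT was the group that stood apart, below all other libraries. Pdk2 fell by 0.35 at night in WT (adjusted p = 0.0301) and had a DKO difference of 0.11, an interaction of 0.46 (interval 0.28 to 0.64, adjusted p = 0.396) that was 0.52 after median-of-ratios scaling.

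Mrto4, a ribosome assembly factor, had 3.75, 3.76 and 4.202 in day WT and 5.42, 5.57 and 5.79 in night WT. It had 5.10, 5.33 and 5.66 in day DKO and 5.14, 5.45 and 4.86 in night DKO. Both DKO groups lay above day WT without overlap. Mrto4 rose in WT by 0.43 (adjusted p = 0.018), and its interaction was -0.48 (interval -0.67 to -0.29). Mat2a, which makes the methyl donor S-adenosylmethionine, had 24.9 to 25.9 in day WT, 31.4 to 34.6 in night WT, 30.2 to 32.2 in day DKO and 29.0 to 31.3 in night DKO. Mat2a rose in WT by 0.34 (adjusted p = 0.0257, lost after quantile normalization), with an interaction of -0.39 (interval -0.55 to -0.22). Plpp6, a lipid phosphatase, rose in WT by 0.36 (adjusted p = 0.0301, lost under both other scalings), with an interaction of -0.46. Here too day WT was the low group, at 9.97 to 10.4 against 11.2 to 13.5 in the other 3. Kcns1, a modulatory potassium channel subunit, had 1.34 to 2.00 in day WT, 2.88 to 3.81 in night WT and 1.56 to 2.67 over the 6 DKO libraries. Kcns1 rose in WT by 0.67 (adjusted p = 0.039, lost under both other scalings), with an interaction of -0.70 (interval -1.11 to -0.29). Arl4d, a small GTPase, rose in WT by 0.86 (adjusted p = 0.0429, lost under both other scalings), with an interaction of -0.70 (interval -1.26 to -0.15). Sox9, a transcription factor of astrocytes, fell in WT by 0.42 (adjusted p = 0.0429), and its interaction was 0.40 (interval 0.13 to 0.68). The 6 DKO libraries of Sox9 lay between 3.25 and 3.81, where night WT had 2.92 to 3.03 and day WT 3.71 to 5.26.

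Of 33 proteasome subunits, 6 rose at night in WT and 0 in DKO by the adjusted limma test, against 1.51% and 0.181% of all genes. The WT count was 0 under both other scalings. At an unadjusted p under 0.05, 29 were higher at night in WT and 11 in DKO, against 19.8% and 10.3% of all genes. Those counts were 21 and 10 after median-of-ratios scaling, against 7.32% and 7.9% of all genes. After quantile normalization they were 16 and 15, against 7.05% and 7.06%, so the gap between genotypes depended on scaling. The interaction was below 0 in 31, against 63.5% of all genes. An unadjusted interaction p under 0.05 was reached by 4, all lower in DKO, against 6.87% of all genes, and none of the 33 passed the adjusted test. They were 2 after median-of-ratios scaling and 0 after quantile normalization. Their median interaction was -0.13 as deposited, -0.06 after median-of-ratios scaling and -0.03 after quantile normalization. Psmd14, a deubiquitinase of the proteasome lid, had 19.3, 21.2 and 24.8 in day WT and 27.9, 31.0 and 26.7 in night WT, and rose by 0.38 (adjusted p = 0.0497, lost under both other scalings). In DKO it had 24.1, 22.5 and 25.1 by day and 26.2, 23.4 and 25.4 at night, with an interaction of -0.31 (interval -0.58 to -0.05). Taf9 and Ly6a were smaller in DKO. Taf9, a subunit of general transcription complexes, rose in WT by 0.48 (adjusted p = 0.018) with 0.24 in DKO. Ly6a, a surface antigen of endothelium, rose in WT by 0.57 (adjusted p = 0.018, lost after median-of-ratios scaling) with 0.15 in DKO.

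Activity-induced genes included the reversed pair Bdnf and Scg2. Of 30 such genes 29 were tested, 7 with a lower and 0 with a higher difference in DKO at an unadjusted interaction p under 0.05 (limma), against 6.87% and 1.79% of all genes. None of the 29 passed the adjusted interaction test. The 7 were Bdnf, Dusp5, Scg2, Ptgs2, Homer1, Gadd45g and Vgf. In DKO Homer1 and Vgf fell at night, against 0.118% of all genes, and in WT Rgs2 rose, a call lost under both other scalings. The median interaction was -0.13, and -0.07 after median-of-ratios scaling. The rapidly induced genes Fos, Npas4, Arc and Egr1 were picked for mention after their values were seen. None was among the 7, and their interactions were 0.27, 0.16, 0.10 and -0.10.

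Bdnf, a neurotrophin needed for hippocampal plasticity (chr2:109674700-109727043), had FPKM of 3.31, 3.37 and 4.01 in day WT and 4.52, 4.46 and 4.08 in night WT. It had 4.89, 4.87 and 5.11 in day DKO and 3.74, 3.08 and 4.08 in night DKO. Night was the higher time in WT, by a margin of 4.08 against 4.01 between the nearest libraries, and the lower time in DKO. The difference was 0.23 in WT and -0.37 in DKO, neither of which passed (adjusted p = 0.132 and 0.0786). The interaction was -0.60 (interval -0.85 to -0.35, adjusted p = 0.396). It was -0.55 after median-of-ratios scaling and -0.57 after quantile normalization, where the WT times of Bdnf overlapped and it counted as gained. Scg2, a precursor of neuropeptides, had 27.5, 30.9 and 33.1 in day WT and 35.7, 35.0 and 34.4 in night WT. It had 38.1, 46.8 and 42.4 in day DKO and 34.0, 31.1 and 37.9 in night DKO. The day DKO libraries were the highest, and the interaction was -0.49 (interval -0.77 to -0.22). Scg2 too became gained under both other scalings.

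The Scg2 window is shown because it held the cyclic AMP response element TGACGTCA, through which activity is known to act on transcription (chr1:79439977-79440276, minus strand, RefSeq, match on either strand in capitals).
Scg2: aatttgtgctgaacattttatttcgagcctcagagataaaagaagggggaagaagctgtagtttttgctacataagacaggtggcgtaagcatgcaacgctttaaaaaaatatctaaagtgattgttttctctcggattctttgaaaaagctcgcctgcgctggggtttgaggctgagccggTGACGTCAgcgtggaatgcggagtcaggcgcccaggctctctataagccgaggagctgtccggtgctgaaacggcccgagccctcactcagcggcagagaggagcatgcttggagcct
This element was in 1.79% of all windows and in 3.62% of the 10139 tested genes with a window. Of 23 activity-induced genes with a window, 2 held it, Btg2 and Scg2. Their interactions had opposite signs, 0.30 for Btg2 and -0.49 for Scg2.

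Homer1, a postsynaptic scaffold with an activity-induced short form, had 10.3, 10.4 and 10.8 in day WT and 10.04, 10.7 and 11.7 in night WT. It had 14.7, 12.9 and 14.4 in day DKO and 10.6, 10.6 and 11.1 in night DKO. Homer1 fell in DKO by 0.35 (adjusted p = 0.0436), a call that was lost in 13 of 23 alternatives, among them those without day DKO replicate 1 or 3 and without any 1 of the night DKO replicates. Its interaction was -0.38 (interval -0.58 to -0.19). Vgf, a neuropeptide precursor, had 21.3 to 23.4 over the 6 WT libraries. It had 33.3, 33.9 and 37.5 in day DKO and 27.8, 27.0 and 25.2 in night DKO, above WT at both times. Vgf fell in DKO by 0.37 (adjusted p = 0.0212, lost without day DKO replicate 2 or 3 or night DKO replicate 2 or 3, and with a choroid plexus covariate), with an interaction of -0.33 (interval -0.52 to -0.14). Dusp5, a phosphatase of ERK kinases, was lost, with differences of 0.43 in WT and -0.16 in DKO and an interaction of -0.59 (interval -0.96 to -0.22). For Dusp5 the 6 DKO libraries lay between 4.49 and 6.80 and day WT between 2.52 and 3.68.

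**Figure D4:**
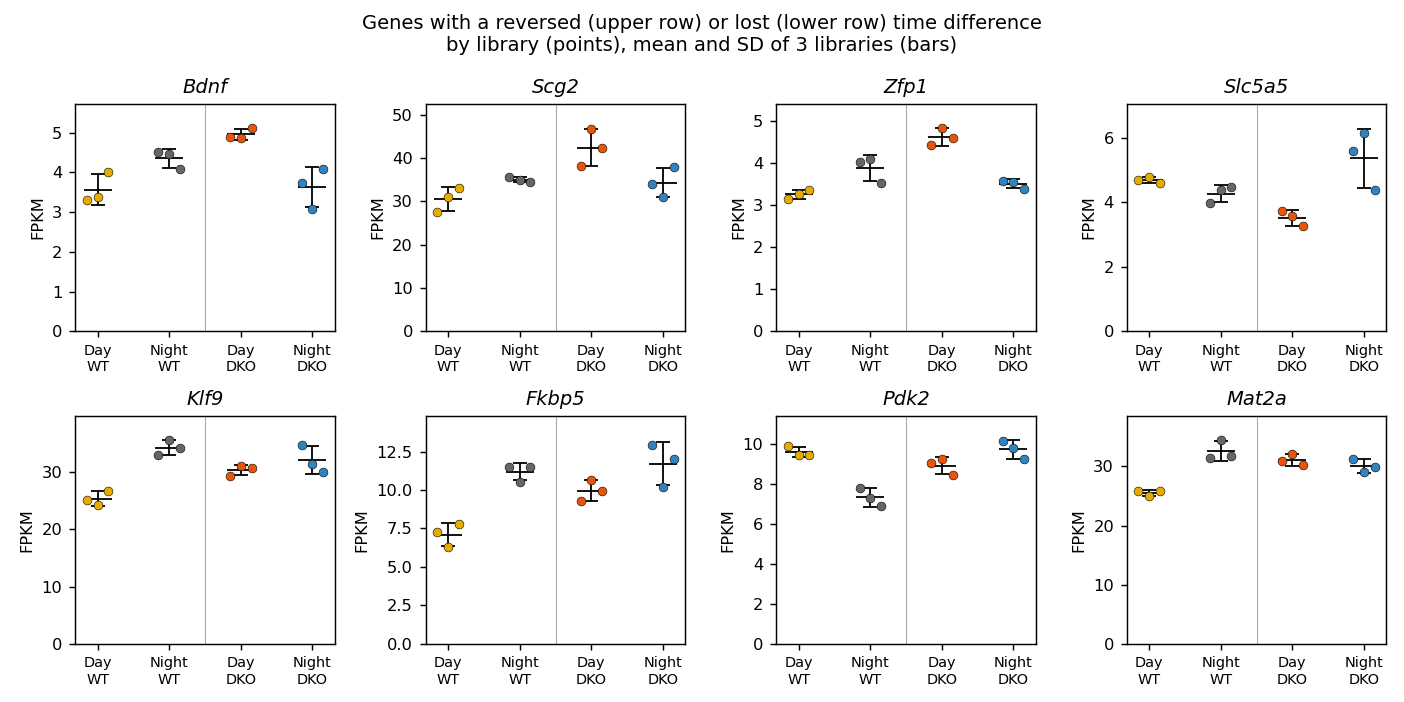
FPKM (vertical) of 8 genes in the 4 groups (horizontal). Points are libraries and bars the mean and SD of 3 libraries. The upper row holds genes whose night minus day difference had opposite signs in WT and DKO, and the lower row genes whose day and night libraries separated in WT and overlapped in DKO.

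Other reversed genes had no shared list. Zfp1, a zinc finger protein gene (chr8:111643443-111671108), had the smallest unadjusted interaction p, 5.02e-05. Its FPKM was 3.15, 3.26 and 3.36 in day WT and 4.04, 4.10 and 3.52 in night WT. It was 4.43, 4.84 and 4.59 in day DKO and 3.58, 3.56 and 3.39 in night DKO. The differences of 0.20 and -0.32 did not pass (adjusted p = 0.0998 and 0.0541), and the interaction was -0.51 (interval -0.70 to -0.33, adjusted p = 0.396). Slc5a5, the sodium iodide symporter (chr8:70882885-70892785), had 4.70, 4.79 and 4.60 in day WT and 3.96, 4.38 and 4.46 in night WT. It had 3.74, 3.57 and 3.25 in day DKO and 5.58, 6.13 and 4.36 in night DKO. Slc5a5 rose in DKO by 0.48 (adjusted p = 0.0463), a call that was lost in 17 of 23 alternatives, both other scalings among them. Its interaction was 0.60 (interval 0.32 to 0.87). Zfp1 and Slc5a5 stayed reversed under both other scalings, as did Zfp36l1, which encodes a protein that destabilises messenger RNA. For Zfp36l1 the differences were -0.26 and 0.24, and the interaction was 0.50 (interval 0.26 to 0.73). Pik3cd, a lipid kinase subunit of immune cells, was reversed as deposited with an interaction of 0.41, and lost after median-of-ratios scaling.

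Gained differences with night lower in DKO included Gpr27, Thrsp and Rbm45. Thrsp, a regulator of lipid synthesis responsive to thyroid hormone, had 10.4, 10.1 and 12.99 in day WT and 14.7, 12.8 and 12.8 in night WT. It had 15.9, 19.9 and 17.9 in day DKO and 11.9, 11.1 and 13.6 in night DKO, so day DKO was the highest group. Its DKO difference of -0.51 did not pass (adjusted p = 0.0621), and its interaction was -0.77 (interval -1.09 to -0.45). Gpr27, an orphan receptor, had 6.08 to 6.36 in day DKO and 3.64 to 4.68 in night DKO, with an interaction of -0.79 (interval -1.14 to -0.44). Rbm45, an RNA-binding protein, had 6.03 to 7.001 over the 6 WT libraries, 7.62, 8.84 and 8.97 in day DKO and 5.86, 6.14 and 5.63 in night DKO. Rbm45 fell in DKO by 0.46 (adjusted p = 0.0159, lost without day DKO replicate 2 or 3 or night DKO replicate 3 and with a choroid plexus covariate). Its interaction was -0.49 (interval -0.70 to -0.27). Neurod2, a transcription factor of excitatory neurons, had 19.4 to 22.1 over the 6 WT libraries, 26.4 to 32.5 in day DKO and 21.5 to 24.1 in night DKO. The interaction of Neurod2 was -0.35 (interval -0.59 to -0.12).

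Of 22 chaperone and cold-inducible genes, 4 had a lower and 0 a higher difference in DKO at an unadjusted interaction p under 0.05 (limma), against 6.87% and 1.79% of all genes, and 0 passed the adjusted interaction test. Hsph1, a partner of Hsp70 proteins, had 23.7 to 28.6 over the 6 WT libraries, 32.8 to 37.3 in day DKO and 25.6 to 28.4 in night DKO, with an interaction of -0.37 (interval -0.60 to -0.14). Hspd1, the mitochondrial chaperonin, had 34.7, 36.2 and 36.9 in day WT and 42.6, 42.7 and 40.8 in night WT, with overlapping times in DKO and an interaction of -0.32. That of Hspd1 was -0.20 after quantile normalization. The median of the list was -0.10, and -0.04 after median-of-ratios scaling, close to the median of all genes in each case. In DKO Rbm3 was the member that rose.

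Gained differences with night higher in DKO included Crip1, Ifitm3 and Id3. Of 13 smooth muscle and pericyte genes, 2 (Crip1 and Tpm2) had an unadjusted interaction p under 0.05, against 8.66% of all genes, and 4 had an interaction below 0, against 63.5%. Of 16 endothelial genes 0 reached that p. Crip1, a LIM domain protein of smooth muscle and immune cells (chr12:113152012-113153879), had 20.6, 24.3 and 17.2 in day WT and 19.7, 22.6 and 21.7 in night WT. It had 8.91, 6.66 and 10.2 in day DKO and 17.5, 18.3 and 16.4 in night DKO. Day DKO was the low group without overlap. Crip1 rose at night in DKO by 0.96 (adjusted p = 0.00662), its WT difference was 0.05, and its interaction was 0.91 (interval 0.51 to 1.31, adjusted p = 0.396). With a choroid plexus covariate the interaction was 0.69 and the DKO call was lost. Ifitm3, an interferon-induced membrane protein, had 10.97, 13.9 and 9.14 in day WT, 9.51, 8.15 and 9.15 in night WT, 5.83, 6.10 and 5.97 in day DKO and 8.12, 7.87 and 9.27 in night DKO. Its interaction was 0.73 (interval 0.39 to 1.07), with no call in either genotype. Id3, an inhibitor of helix-loop-helix factors, had 28.0 to 33.9 over the 6 WT libraries, 19.0 to 20.5 in day DKO and 27.7 to 29.6 in night DKO. Id3 rose in DKO by 0.50 (adjusted p = 0.0119, lost with a choroid plexus covariate), and its interaction was 0.41 (interval 0.18 to 0.63).

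Of 19 fibroblast and extracellular matrix genes, 6 had a higher difference in DKO at an unadjusted interaction p under 0.05 and 0 a lower one, against 1.79% and 6.87% of all genes, and 0 passed the adjusted interaction test (limma). They were Igf2, Slc13a4, Pcolce, Bmp6, Thbs1 and Bgn. In DKO Col4a1, a basement membrane collagen, fell. The list's median interaction was 0.16, and 0.21 after median-of-ratios scaling. Igf2, a growth factor made by meninges and choroid plexus, had 15.96, 24.2 and 14.01 in day WT and 19.9, 16.1 and 17.4 in night WT. It had 8.61, 5.29 and 9.02 in day DKO and 16.7, 14.99 and 13.4 in night DKO. Its interaction was 0.90 (interval 0.32 to 1.49) and 0.53 with a choroid plexus covariate. Bmp6, a secreted bone morphogenetic protein, had 1.77 to 2.32 in day DKO and 3.16 to 4.88 in the other 9 libraries, with an interaction of 0.53 (interval 0.21 to 0.86).

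All 18 tested choroid plexus markers had an interaction above 0, from 0.34 to 2.13. The highest was that of Ttr, which encodes the secreted carrier transthyretin. The median of the 18 was 1.00, and 0.02 when their own level was a covariate, as that term removes it by construction. An unadjusted interaction p under 0.05 was reached by Sostdc1 and F5, and none passed the adjusted test. At night against day, 0 of 18 passed in either genotype (limma), and 16 in DKO and 0 in WT had an unadjusted p under 0.05, against 15.1% and 22.3% of all genes. Summed FPKM of the 18 markers was 889, 80.1 and 1895 in day DKO and 3188, 2022 and 2240 in night DKO. It was 2708, 2941 and 1191 in day WT and 3255, 1443 and 3324 in night WT. The day and night libraries overlapped in WT and not in DKO, and day DKO replicate 2 was far below the others. Sostdc1 had 4.57, 0.783 and 4.25 in day DKO and 8.88, 5.18 and 5.08 in night DKO, and an interaction of 1.37 (interval 0.07 to 2.67) that was 0.41 with the covariate. Without day DKO replicate 2 the interaction was 0.84 for Sostdc1 and 0.72 for F5, against 1.12 for F5 with all libraries. Mia, which is not on the list, had an interaction of 1.28 (interval 0.48 to 2.08), and 0.72 with the covariate. Whether this tissue has a part in the interactions of Crip1, Id3, Igf2, Slc13a4 and Mia was not tested. The covariate itself differed between day and night DKO without overlap, so tissue content and the interaction cannot be told apart by it. With the covariate 723 genes had an unadjusted interaction p under 0.05, 224 higher and 499 lower.

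**Figure D5:**
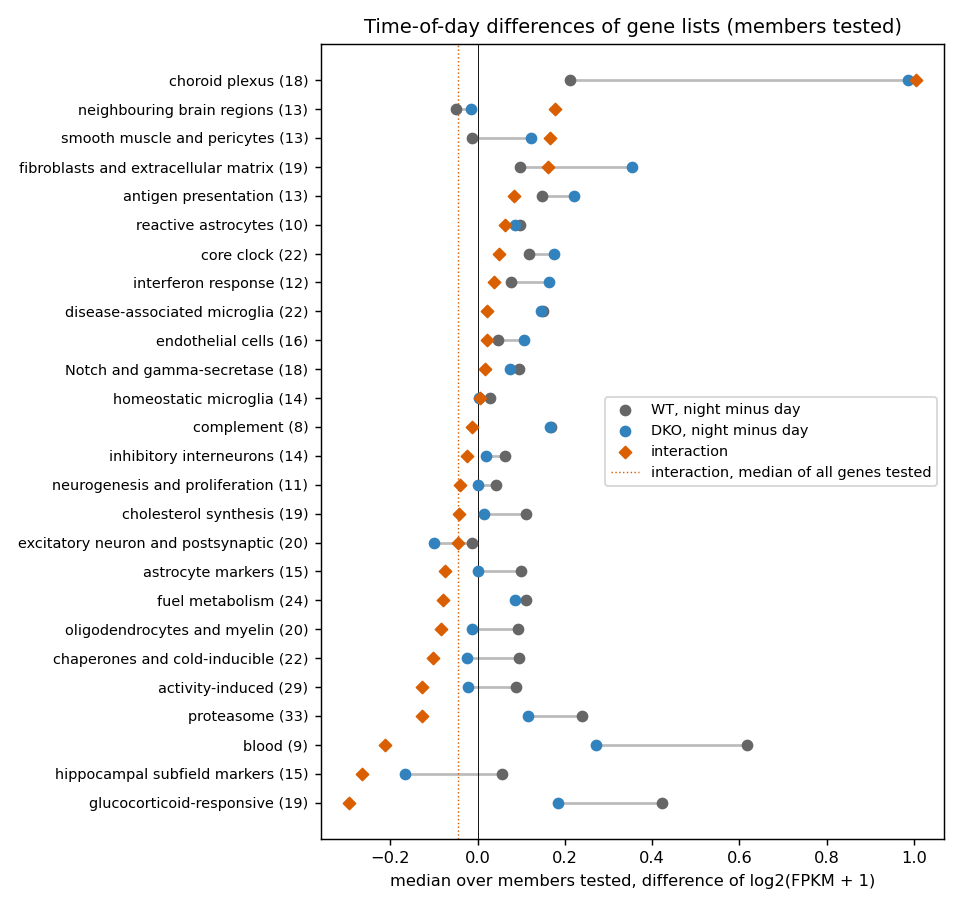
Median night minus day difference in WT and DKO and median interaction, on the log2(FPKM + 1) scale (horizontal), for 26 gene lists (vertical, number of members tested in brackets). The dotted line is the median interaction of all genes tested: glucocorticoid-responsive genes have the lowest median interaction (-0.29) and choroid plexus markers the highest (1.00).

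Notch and gamma-secretase genes, the nearest to the deleted enzyme, held 2 of 18 members at an unadjusted interaction p under 0.05, against 8.66% of all genes. Notch1, a receptor cut by gamma-secretase, had 3.03, 3.19 and 3.04 in day WT and 2.71, 2.43 and 2.48 in night WT. It had 2.74, 2.61 and 2.16 in day DKO and 2.68, 2.90 and 2.63 in night DKO, with an interaction of 0.31 (interval 0.09 to 0.52). The other was Psen2 itself, with -0.48 (interval -0.92 to -0.05), where a time difference of 0.57 in WT had no counterpart at the low level of DKO. No member was called at night against day in either genotype by limma, with 5 in WT and 4 in DKO at an unadjusted p under 0.05, against 22.3% and 15.1% of all genes. The median interaction of the list was 0.02.

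Fuel metabolism genes numbered 24, with 2 higher (Pdk2 and Gys1) and 4 lower (Acadl, Acot1, Ldha and Nampt) in DKO at an unadjusted interaction p under 0.05, against 1.79% and 6.87% of all genes. None of the 24 passed the adjusted interaction test. Under both other scalings 2 were higher and 2 lower. Of all 12689 genes, 482 were higher and 460 lower after median-of-ratios scaling, and 409 and 499 after quantile normalization. Acadl, a mitochondrial dehydrogenase of fatty acid oxidation, had 4.23, 4.98 and 6.70 in day WT, 7.22, 6.51 and 7.67 in night WT, and 4.03 to 5.88 over the 6 DKO libraries. Its interaction was -0.54 (interval -0.92 to -0.16). Cholesterol synthesis genes had 1 of 19 at that threshold, against 8.66% of all genes.

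An unadjusted interaction p under 0.05 was reached by 0 of 14 homeostatic microglia genes, 0 of 8 complement genes, 0 of 13 antigen presentation genes, 1 of 22 disease-associated microglia genes and 1 of 10 reactive astrocyte genes, against 8.66% of all genes. Of 12 interferon response genes 1, Ifitm3, did so. None of the 67 genes of the first 5 lists was called in the adjusted interaction or time tests of limma, and 8 in WT and 14 in DKO had an unadjusted time p under 0.05, against 22.3% and 15.1% of all genes. Some intervals in these lists were far wider than the all-gene median half-width of 0.24, as for C1qa (-0.96 to 0.72) and C4b (-0.59 to 0.92). That of Cd63 was -0.06 to 0.47. Night DKO replicate 1 stood apart: its summed complement FPKM was 62.7, where night DKO replicates 2 and 3 had 142.5 and 152.4. Astrocyte markers had 2 higher (Sox9 and Atp1b2) and 2 lower (Fabp7 and S100b) of 15, against 1.79% and 6.87% of all genes, with Fabp7 the one called in both genotypes. Oligodendrocyte genes had 1 higher (Aspa) and 2 lower (Opalin and Olig1) of 20, against the same 1.79% and 6.87%. The count of lower ones was 0 under both other scalings. Inhibitory interneuron genes had 0 of 14, against 8.66% of all genes in either direction.

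Hippocampal subfield markers had a median interaction of -0.26, with 2 of 15 at an unadjusted p under 0.05, Bok and Calb1, both lower in DKO, against 6.87% of all genes. Bok had 23.0, 24.1 and 32.0 in day WT and 32.6, 31.9 and 30.1 in night WT, with 32.7, 33.6 and 38.0 in day DKO and 24.7, 25.3 and 32.8 in night DKO. Its libraries overlapped in both genotypes, and the interaction was -0.59 (interval -0.97 to -0.22). Markers of neighbouring brain regions had a median of 0.18 over the 13 tested and a summed FPKM of 27.4 to 40.4, against 232.7 to 273.2 for the subfield markers. Whether the plane of dissection has a part in the subfield values was not tested. Blood genes had an interaction below 0 in 9 of 9, against 63.5% of all genes, with a median of -0.21 and 1 member, Fech, at an unadjusted p under 0.05.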

How the data were processed

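Total RNA from 12 hippocampal samples was sequenced after ribosomal RNA removal, per the labels' protocols. The authors deposited 1 table per library, with 1 value per gene for 21878 genes. The deposited values are FPKM. Their scale shows this unit, as the file headers carry only a sample name. Genome build GRCm38.p6 is named in the submitters' processing notes. The aligner and quantifier are not stated there. The tables hold no counts, so no counting interval was given. The reference annotation held 21727 of the gene IDs, and 27 symbols turned into dates were restored.

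Values were transformed to log2(FPKM + 1) for 12689 genes, those whose FPKM reached 0.5 in 3 or more libraries. They were tested with limma 3.58.1 (R 4.3.3), with 1 mean per group, an intensity trend and Benjamini-Hochberg adjustment over all genes, 2-sided, at 0.05. The script was tested on simulated data. Named genes followed a rule: the 10 smallest interaction p per direction, 5 per pattern and direction, genes called in both genotypes, 6 called in each genotype, all core clock genes, 4 per other list, and the targeted genes. Some genes it named are not reported here. Genes with a mean log2(FPKM + 1) under 1 or a provisional symbol were passed over. It named 175 genes, and 71 genes are described here, with Tsc22d3 and Sgk1 from outside it. Single genes given only a sign, count or interaction come from the lists. Lists and rules were chosen with earlier results of these data known.

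Alternatives were the pseudocount (0.1 and 0.5), the filter, median-of-ratios scaling, quantile normalization, no trend, robust variance, library quality weights, a replicate block, a choroid plexus covariate (the mean deviation of its markers), and leaving out each library.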

Additional observations from a re-analysis of the deposited data

How the results depend on the processing

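The interaction called 0 genes in each of the 23 alternatives but 1. Without day WT replicate 3 it called 1 gene, Timmdc1, at an adjusted p of 0.000252. The Day WT values of Timmdc1 were 1.72, 1.85 and 4.56 FPKM. Of the 71 genes described, 69 kept the direction of the interaction in all 23. The exceptions are near 0. Per2 was 0.044 under median-of-ratios scaling, 0.0048 under quantile normalization and 0.031 with the choroid plexus covariate, and -0.066 to 0.045 without 1 library at a time. Rbm3 was 0.036 and 0.015 with pseudocounts of 0.1 and 0.5, 0.051 under median-of-ratios scaling, 0.018 under quantile normalization, 0.015 with quality weights and 0.14 with the covariate. It was -0.16 to 0.14 without 1 library at a time.

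Counts moved by over 1.5 times as follows, and the causes were not tested. With no filter, 17914 genes were tested, 355 genes were higher in DKO at an unadjusted interaction p, 64 were called in WT and 21 in DKO, and 20 were smaller. With median-of-ratios scaling 482 were higher and 460 lower, 52 were called in WT and 371 were lost. With quantile normalization 409 were higher and 499 lower, 72 were called in WT and 63 in DKO, and 340 were lost. WT calls were 99 with no trend and 418 with quality weights. With the choroid plexus covariate 723 had an unadjusted p under 0.05, 499 of them lower, 15 were called in DKO, 192 were gained, 308 lost and 3 smaller. With patterns set by an unadjusted p in each genotype, 35 were reversed. Without 1 library at a time, interaction calls were 0 to 1, the smallest adjusted p 0.000252 to 0.777, genes at an unadjusted p 740 to 1535 (135 to 375 higher, 534 to 1254 lower), WT calls 1 to 214 and DKO calls 19 to 55. Gained genes were 183 to 542, lost 321 to 906, reversed 83 to 239, larger 11 to 18 and smaller 7 to 30. Pattern counts rise there partly because fewer libraries overlap less often.

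With the replicate number as a block, the interaction called 0 genes (limma, smallest adjusted p 0.333), 1208 genes had an unadjusted p under 0.05 (270 higher, 938 lower), and 144 were called in WT and 48 in DKO. Same-numbered libraries of different groups had deviations correlated from -0.12 to 0.25, 7 of 18 pairs above 0.1. The 36 other pairs ranged from -0.20 to 0.22, and those above 0.1 were 0.104, 0.116, 0.203 and 0.22. Correlations above 0.1 were thus more common among same-numbered pairs, while the ranges overlapped. These values do not decide whether the numbers pair the samples, and the main fit did not use the numbers.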
